A study of Mus musculus with 5 samples.

Results

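A set of 9 genes of the senescence-associated secretory phenotype (SASP) were followed through all 5 mouse RNA-seq libraries of the series. They are the cytokine Il6, the chemokines Cxcl1, Cxcl5, Ccl2, and Ccl7, the matrix metalloproteinase Mmp3, the insulin-like growth factor binding proteins Igfbp3 and Igfbp7, and the metalloproteinase inhibitor Timp1. These 9 of 24421 genes were chosen by symbol, and each was found once in both deposited tables. The libraries came from mouse embryonic fibroblasts (MEFs), which the study's methods describe as grown from CF-1 embryos and used at low passage in medium with 10% FBS, from iPSCs, from untreated V6.5 cells (a line of mouse embryonic stem cells, mESCs), and from V6.5 cells expressing either a non-targeting control shRNA (NTC) or an shRNA against Gldc (shGldc). Gldc encodes glycine decarboxylase, a subunit of the glycine cleavage system. The strain and donor cells of the iPSCs and the age of the cultures are not given in the labels, and the sequence of the hairpin in the shGldc library is not given in the sources used here, since the deposited column names it sh3 and the study's shRNA list names sh1 and sh2 for mouse Gldc. The labels describe the stem cells as feeder-independent, on gelatin in medium with 15% serum replacement, 1% FBS, and leukaemia inhibitory factor, while the study's methods also describe culture on feeder cells for some work. With a single library for each condition there is no replicate check of any difference, no p-value is given, and the values describe these libraries.

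Senescent cells stop dividing but stay active, and many secrete a mixture of cytokines, chemokines, proteases, and growth factor binding proteins. In that mixture, IL-6 signals through gp130, CXC and CC chemokines attract neutrophils and monocytes, MMP3 cuts matrix proteins, TIMP1 inhibits metalloproteinases, and the IGF binding proteins hold insulin-like growth factors outside the cell. NF-kappaB and C/EBP-beta are known regulators of the inflammatory genes of the programme, and AP-1 of many of its proteases. Fibroblasts in culture also express many of these genes without being senescent, so the genes alone do not mark senescence. The knockdown addresses whether loss of Gldc comes with senescence in stem cells. The study took up this question with cell cycle inhibitors, a protein adduct of methylglyoxal, and, in reprogramming cells, beta-galactosidase staining. It also tried rescue by Glo1 or carnosine.

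Levels are given in FPKM, a unit that divides fragment counts by transcript length and by sequencing depth, so they can be compared between genes per length. MEFs, iPSCs, and untreated V6.5 cells stand in the first table and NTC and shGldc cells in the other, and the tables were made separately. FPKM values summed to between 466650 and 576470 per library, and between 7067 and 9092 genes were listed at 0. The table of NTC and shGldc cells had more such genes (9086 and 9092) than the other table (7067 to 8389). From the spacing of low values, about 22100000 to 24600000 fragments lay behind the first 3 libraries. The best spacing for the NTC and shGldc libraries gave up to 29100000 fragments, and 2 times that spacing would give 14500000. This larger spacing lay outside the search, which covered 0.03 to 0.06 FPKM times kilobase per fragment for every library. A factor of 2 is thus undecided. The smaller depth was used for NTC and shGldc cells, and all fragment numbers and intervals below rest on these depths. A level worth 3 fragments was taken as the floor, which covers counting error only. Pluripotency markers had a summed level of 3.44 FPKM in MEFs and of 3850 to 7218 FPKM in the other 4 libraries. Fibroblast markers summed to 8157 FPKM in MEFs and to 11.1 to 80.3 FPKM elsewhere. Of 12 macrophage markers, 11 were at 1 FPKM or more in MEFs, and all 12 summed to 313 FPKM there and 11.8 to 22.1 FPKM elsewhere. Most of the sum elsewhere was Cd68, at 9.04 to 19.9 FPKM, a gene at 18.7 FPKM in MEFs. Gldc was at 74.7 FPKM in NTC and 2.07 FPKM in shGldc cells, a log2 ratio of -5.11.

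The stretches before the transcription start are shown for Il6, Cxcl1, and Mmp3, which were listed at 0 in both shRNA libraries, and for Igfbp7, the member with the highest level in MEFs, so that their letters can be read beside the levels. They are the 250 bases upstream of the RefSeq start in GRCm38.p6, at chr5:30012864-30013113 (+) for Il6, chr5:90890995-90891244 (+) for Cxcl1, chr9:7445572-7445821 (+) for Mmp3, and chr5:77408046-77408295 (-) for Igfbp7, each written 5′ to 3′ on the gene's own strand. Capitals mark matches on either strand to the kappaB motif (by name), to TGANTCA (AP-1), to TTGCNNAA (C/EBP), or to TATAAA. RefSeq promoters were matched for 6 of the 9 genes, the others being Cxcl5, Ccl2, and Ccl7.

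Il6: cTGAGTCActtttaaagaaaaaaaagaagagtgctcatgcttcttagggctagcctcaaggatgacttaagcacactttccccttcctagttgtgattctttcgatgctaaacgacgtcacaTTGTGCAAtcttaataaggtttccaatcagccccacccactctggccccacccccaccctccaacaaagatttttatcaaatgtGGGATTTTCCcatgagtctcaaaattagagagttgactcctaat

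Cxcl1: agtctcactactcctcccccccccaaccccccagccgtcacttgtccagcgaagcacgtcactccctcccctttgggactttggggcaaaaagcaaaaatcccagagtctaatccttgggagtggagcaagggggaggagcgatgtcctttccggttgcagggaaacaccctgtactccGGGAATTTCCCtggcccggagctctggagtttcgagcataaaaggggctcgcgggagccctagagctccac

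Mmp3: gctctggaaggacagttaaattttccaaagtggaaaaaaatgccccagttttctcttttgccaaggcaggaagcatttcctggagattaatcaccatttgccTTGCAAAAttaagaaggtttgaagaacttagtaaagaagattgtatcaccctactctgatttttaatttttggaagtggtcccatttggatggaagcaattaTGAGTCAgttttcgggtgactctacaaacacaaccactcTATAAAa

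Igfbp7: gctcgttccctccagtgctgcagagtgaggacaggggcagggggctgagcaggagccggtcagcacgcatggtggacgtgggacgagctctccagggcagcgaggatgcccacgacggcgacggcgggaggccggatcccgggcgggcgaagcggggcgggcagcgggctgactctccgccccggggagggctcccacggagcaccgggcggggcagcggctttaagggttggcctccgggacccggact

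Il6 held a kappaB match 44 to 35 bases before its start, a C/EBP match 128 to 121 bases before it, and an AP-1 match 249 to 243 bases before it. Cxcl1 held kappaB matches on both strands, which overlap, 71 to 62 and 70 to 61 bases before its start. Mmp3 held an AP-1 match 46 to 40 bases, a C/EBP match 148 to 141 bases, and a TATAAA match 7 to 2 bases before its start. Igfbp7, Igfbp3, and Timp1 held no match to these letters in this window. Of 32536 RefSeq promoter windows of the same length, 3.9% held a kappaB match, 6.7% an AP-1 match, 9.6% a C/EBP match, and 12.3% TATAAA. A match is a description of the letters and not of a bound site.

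**Figure D1:**
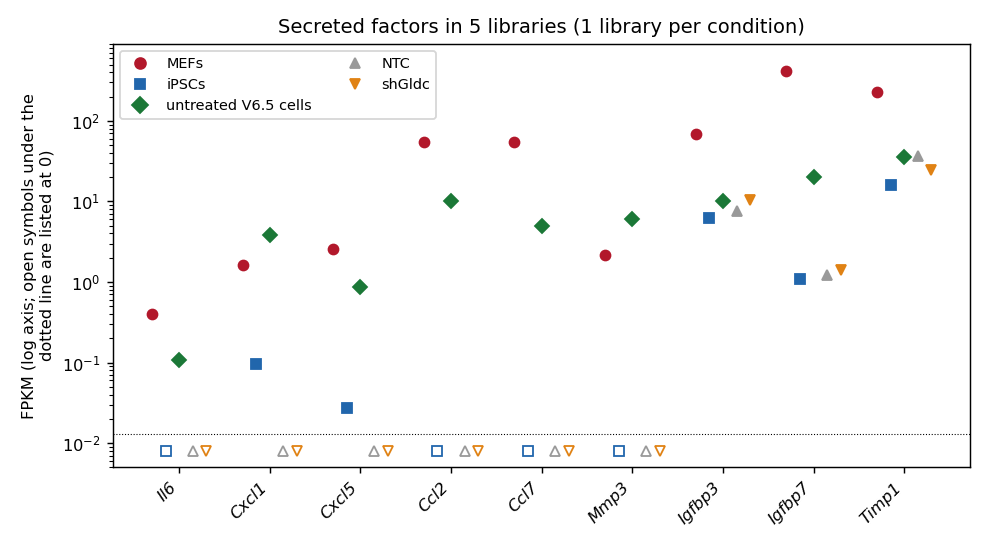
FPKM of the 9 secreted factors (x axis) on a log y axis in MEFs, iPSCs, untreated V6.5 cells, NTC cells, and shGldc cells, 1 point per library, with values listed at 0 drawn as open symbols under the dotted line. Cxcl1 and Mmp3 were higher in untreated V6.5 cells than in MEFs, and Il6, Cxcl1, Cxcl5, Ccl2, Ccl7, and Mmp3 were listed at 0 in both NTC and shGldc cells.

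In MEFs, Igfbp7, Timp1, Igfbp3, Ccl7, and Ccl2 were expressed at high levels, and Cxcl5, Mmp3, Cxcl1, and Il6 at low ones. The summed level of the 9 genes was 826 FPKM in MEFs, 23.5 FPKM in iPSCs, 91.9 FPKM in untreated V6.5 cells, 45.6 FPKM in NTC cells, and 36.4 FPKM in shGldc cells. Igfbp7 led the set in MEFs at the 99.3 percentile of all genes, followed by Timp1 at 98.8, Igfbp3 at 95.4, Ccl7 and Ccl2 at 94.2, Cxcl5 at 61.5, Mmp3 at 60.2, Cxcl1 at 58.0, and Il6 at 49.4. The lower levels rest on few fragments, an estimated 95 (exact 95% Poisson interval 76.9 to 116.1) for Mmp3 and 99 (80.5 to 120.5) for Cxcl5. In bulk RNA, fewer cells of a type and less RNA per cell cannot be told apart.

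In untreated V6.5 cells against MEFs, 8 of the 9 genes had a level of 1 FPKM or more in a library of the pair. Of these 8, 6 were at least 2-fold lower in V6.5 cells, and 2, Cxcl1 and Mmp3, were at least 2-fold higher. Among all 12840 genes that passed this filter, 23.3% were at least 2-fold lower and 30.3% at least 2-fold higher. Ratios are differences of log2(FPKM + 0.1), a scale that understates how far low genes lie apart. The median log2 ratio was -2.55 over the 8 genes and 0.25 over all genes. In iPSCs against MEFs, all 8 genes that passed were at least 2-fold lower, where 21.3% of 13032 genes were lower by that much and 31.5% higher. Cxcl1, Cxcl5, Ccl2, Ccl7, and Mmp3, 5 of the 8, were under 1 FPKM in iPSCs and passed only through the MEF library, so their direction follows from the filter. In V6.5 cells against MEFs this held for Cxcl5 alone. Both comparisons share the MEF library. The median over the 8 genes was -4.43 in iPSCs, against 0.31 over all genes, and -4.86 with values at or under the floor set to the floor, as was the case for 5 of the 8.

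The iPSCs and the untreated V6.5 cells, which are both pluripotent and stand in the same table, differed in most of these genes. Of 7 members that passed, 6 were at least 2-fold lower in iPSCs and none higher, where 7.44% of 12323 genes were lower by that much and 10.1% higher. The median log2 ratio of the 7 was -4.34, or -4.76 with values at or under the floor set to the floor, against 0.04 over all genes. Ccl2, Ccl7, Cxcl1, and Mmp3, 4 of the 6, passed only through the V6.5 library, where they were high, so their lower level in iPSCs follows from the filter and the count is a description. Igfbp3 was the exception, with a ratio of -0.70. Of the 12 fibroblast markers, 9 passed, of which 6 were at least 2-fold lower in iPSCs and 1 higher, with a median of -3.54, and 4 of the 6 (Col1a2, Col3a1, Col5a2, and Dcn) likewise passed only through the V6.5 library. Col1a1 was at 20.5 FPKM in V6.5 cells and 1.68 FPKM in iPSCs, Col3a1 at 3.21 and 0.0965 FPKM, and Dcn at 1.93 FPKM and listed at 0, while Twist1 was at 2.77 and 11.8 FPKM. Of 8 endoderm markers that passed, 6 were at least 2-fold higher in iPSCs and none lower (median 1.37), with Gata6 at 0.646 FPKM in V6.5 cells and 4.46 FPKM in iPSCs, and both endothelial markers that passed, Pecam1 and Tek, were higher. Gata6, Sox17, and Tek passed only through the iPSC library, where they were high. Pecam1 was listed at 0 in MEFs and was at 14.7 to 31.7 FPKM in every pluripotent library. Of the other endothelial markers, Emcn was listed at 0 in both lines, and Cdh5 and Kdr were under 1 FPKM in both. The part of any such cells in the difference of the members was not tested.

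Il6 (chr5:30013114-30019981, + strand, mm10) encodes the cytokine interleukin 6. Its level was 0.401 FPKM in MEFs and 0.108 FPKM in untreated V6.5 cells, and it was listed at 0 in iPSCs, NTC cells, and shGldc cells. About 11 fragments (5.5 to 19.7) lay behind the MEF value and 3 (0.6 to 8.8), the floor, behind the V6.5 value. Il6 thus passed the filter in no comparison. Its signalling receptor Il6st (gp130), which also serves leukaemia inhibitory factor, was at 48.8 FPKM in MEFs, 6.62 FPKM in iPSCs, 9.96 FPKM in untreated V6.5 cells, 9.44 FPKM in NTC cells, and 9.21 FPKM in shGldc cells. The ligand-binding chain Il6ra was at 1.57, 0.312, 0.416, 3.39, and 4.14 FPKM in the same order.

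Cxcl1 (chr5:90891241-90893115, + strand), a neutrophil attractant, was at 1.64 FPKM in MEFs, 0.0954 FPKM in iPSCs, and 3.86 FPKM in untreated V6.5 cells, and was listed at 0 in NTC and shGldc cells. The V6.5 level was 2.35-fold that of MEFs, a log2 ratio of 1.19. The fragment counts behind it, 91 (73.3 to 111.7) and 38 (26.9 to 52.2), did not overlap in their counting intervals. With the libraries rescaled to the same FPKM sum the log2 ratio was 0.96, and with ratios centred on their median 0.94, both short of 2-fold and in the same direction. About 2 fragments stood behind the iPSC value, which is under the floor.

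Cxcl5 (chr5:90759360-90761624, + strand), which binds the same receptor, was at 2.56 FPKM in MEFs, 0.0273 FPKM in iPSCs, and 0.857 FPKM in untreated V6.5 cells, and was listed at 0 in NTC and shGldc cells. It went the other way from Cxcl1 between MEFs and V6.5 cells, at 33.5% of the MEF level (log2 ratio -1.47). In iPSCs about 1 fragment stood behind the value. The other genes of this CXC cluster were low. Pf4, a platelet and megakaryocyte chemokine, was at 2.72 FPKM in MEFs and listed at 0 in the other 4 libraries, while Cxcl2, Cxcl3, Cxcl15, and Ppbp had at most 0.166 FPKM, the MEF level of Cxcl15. The receptor Cxcr2 was listed at 0 in all 5 libraries, and Cxcr1 reached at most 0.0403 FPKM, in iPSCs.

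Ccl2 (chr11:82035571-82037453, + strand) and Ccl7 (chr11:82045712-82047525, + strand) are neighbouring genes for monocyte attractants. Ccl2 was at 55.1 FPKM in MEFs and 10.2 FPKM in untreated V6.5 cells, and Ccl7 at 55.2 FPKM and 4.999 FPKM, and both were listed at 0 in iPSCs, NTC cells, and shGldc cells. The nearly equal levels in MEFs were not kept in V6.5 cells, where Ccl2 was at 18.5% and Ccl7 at 9.05% of the MEF level (log2 ratios -2.42 and -3.44). About 204 fragments (177.0 to 234.0) lay behind the V6.5 value of Ccl2 and 99 (80.5 to 120.5) behind that of Ccl7. Ccl2 overlaps Gm17268 on the other strand, and since the counting is not stated to use strand, reads of both cannot be told apart. Ccl8 of the same cluster was nearly level, at 0.955 FPKM in MEFs and 0.902 FPKM in V6.5 cells, and Ccl11 was at 0.434 and 0.262 FPKM. Ccl12 was at 3.99 FPKM in MEFs and listed at 0 in the other 4 libraries, and Ccl1 was listed at 0 in all 5. The receptors Ccr2 and Ccr3 were listed at 0 in all 5 libraries, and Ccr1 was at 1.45 FPKM in MEFs and 0.0287 FPKM in V6.5 cells.

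Mmp3 (chr9:7445822-7455975, + strand), also called stromelysin, was at 2.13 FPKM in MEFs and 5.97 FPKM in untreated V6.5 cells, and was listed at 0 in iPSCs, NTC cells, and shGldc cells. The V6.5 level was 2.80-fold that of MEFs (log2 ratio 1.44), with about 265 fragments (234.1 to 298.9) against 95 (76.9 to 116.1). It stayed above 2-fold with the same FPKM sum, at 1.21, and with centred ratios, at 1.20. Of its 50-nt stretches, 8.4% are shared with Mmp10 or Gm15244, so part of its reads could be split. Mmp10 itself was at 0.281 FPKM in MEFs and 0.449 FPKM in V6.5 cells. The collagenase gene Mmp13 was at 1.75 and 0.506 FPKM and Mmp12 at 0.556 and 0.256 FPKM, so these neighbours were higher in MEFs. The cluster's other genes (Mmp1a, Mmp1b, Mmp7, Mmp8, Mmp20, Mmp27) were at most at 0.0406 FPKM, the V6.5 level of Mmp1b.

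Igfbp3 (chr11:7206086-7213923, - strand), the main carrier of insulin-like growth factors in blood, was detected in every library. Its level was 68.4 FPKM in MEFs, 6.26 FPKM in iPSCs, 10.2 FPKM in untreated V6.5 cells, 7.57 FPKM in NTC cells, and 10.5 FPKM in shGldc cells. The 4 pluripotent libraries lay between 6.26 and 10.5 FPKM, all under the MEF library, with log2 ratios to MEFs of -2.73 in V6.5 cells and -3.43 in iPSCs. Its proposed receptor Tmem219 was at 19.97, 10.3, 6.79, 10.3, and 11.5 FPKM in the same order.

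Igfbp7 (chr5:77349240-77408041, - strand), a secreted binding protein found in vessel walls and stroma, was the highest member in MEFs. Its level was 413 FPKM in MEFs, 1.08 FPKM in iPSCs, 20.3 FPKM in untreated V6.5 cells, 1.22 FPKM in NTC cells, and 1.39 FPKM in shGldc cells. The untreated V6.5 library stood between MEFs and the other 3, at 4.91% of the MEF level (log2 ratio -4.34) and with a log2 ratio of iPSCs to V6.5 cells of -4.11. The gene overlaps Polr2b on the other strand, with which it shares 3.0% of its 50-nt stretches. It also overlaps Gm34648 on that strand. Polr2b was at 17.5 to 44.1 FPKM in the 5 libraries and lowest in MEFs, and reads of overlapping genes cannot be told apart without strand.

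Among the other insulin-like growth factor binding proteins, Igfbp4, Igfbp5, and Igfbp6 were highest in MEFs, at 104, 47.5, and 72.0 FPKM, against 8.47, 0.482, and 2.03 FPKM in untreated V6.5 cells. Igfbp2 had the opposite order, with 24.2 FPKM in MEFs, 260 FPKM in iPSCs, 752 FPKM in untreated V6.5 cells, 339 FPKM in NTC cells, and 322 FPKM in shGldc cells, and its log2 ratio of V6.5 cells to MEFs was 4.95. Igfbp1 was listed at 0 in all 5 libraries. The growth factor Igf2, which these proteins bind, was at 759 FPKM in MEFs and 3.87 FPKM in V6.5 cells.

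Timp1 (chrX:20870166-20874735, + strand), the metalloproteinase inhibitor, was at 228 FPKM in MEFs, 16.1 FPKM in iPSCs, 35.4 FPKM in untreated V6.5 cells, 36.9 FPKM in NTC cells, and 24.6 FPKM in shGldc cells. It was the highest of the 9 genes in each of the 4 pluripotent libraries, and its log2 ratio to MEFs was -2.68 in V6.5 cells and -3.82 in iPSCs. Timp1 lies within Syn1, which is on the other strand and was at 1.32 to 5.48 FPKM. Timp2 and Timp3 were also highest in MEFs, at 231 and 111 FPKM, against 14.0 and 1.701 FPKM in untreated V6.5 cells. Cd63, a surface partner of TIMP1, was at 1068 FPKM in MEFs and 158 FPKM in V6.5 cells.

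**Figure D2:**
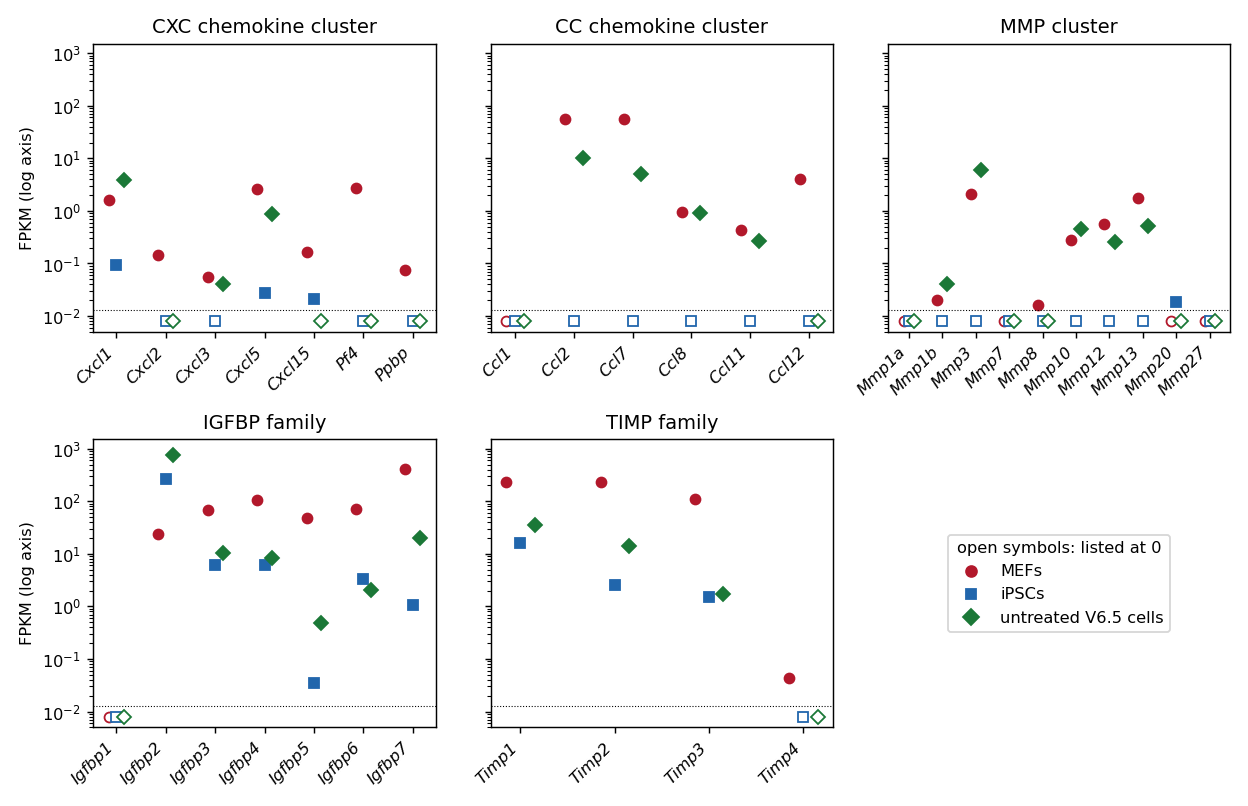
FPKM on a log y axis of the genes of each member's cluster or family (x axis) in MEFs, iPSCs, and untreated V6.5 cells, 1 point per library, with values listed at 0 as open symbols. In the IGFBP panel, Igfbp2 runs opposite to the rest, and in the MMP panel Mmp3 is the gene with the highest level in V6.5 cells.

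The level in untreated V6.5 cells as a percentage of that in MEFs was set beside markers of the cells a MEF culture holds. For the 8 members with an FPKM of at least 1 in MEFs, it ran from 4.91% (Igfbp7) to 280% (Mmp3), with a median of 17.0%. The 12 fibroblast markers ran from 0.559% (Col1a1) to 5.28% (Pdgfra), with a median of 2.24%, and none of them was listed at 0 in V6.5 cells. Their summed level in V6.5 cells was 0.985% of that in MEFs. The 11 macrophage markers at 1 FPKM or more in MEFs had a median of 0.695% and ran from C1qc, listed at 0 in V6.5 cells, to 48.3% (Cd68), with Itgam at 15.6% and Cd14 at 8.88%. Fcgr1 and Ptprc were also listed at 0 in V6.5 cells. Of the 8 members, 7 thus stood at a higher percentage than every fibroblast marker, and Igfbp7 within their range, while Cd68 stood above 6 of the 8. In iPSCs Cd68 was at 106% of its MEF level, where the 11 macrophage markers had a median of 0.787%. In iPSCs the members had a median of 0.666% and reached at most 9.15% (Igfbp3), and the fibroblast markers had a median of 0.0845% and ran from Dcn, listed at 0, to 22.1% (Twist1). Twist1 stood above every member there, while the other 11 markers lay at or under 5.13% (Pdgfra) and Igfbp3, Timp1, and Cxcl1, the last with about 2 fragments, above all 11. In NTC and shGldc cells, Col3a1, Dcn, Lum, and Prrx1 were listed at 0, as were 6 of the 9 members, while 5 of the 12 fibroblast markers were at 1 FPKM or more in each. The 49 other secreted factors at 1 FPKM or more in MEFs had a median of 13.1% in V6.5 cells, with 4 above 100%, so the members lay near this wider list. The part of fibroblast or macrophage RNA in the member levels of V6.5 cells was not tested.

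**Figure D3:**
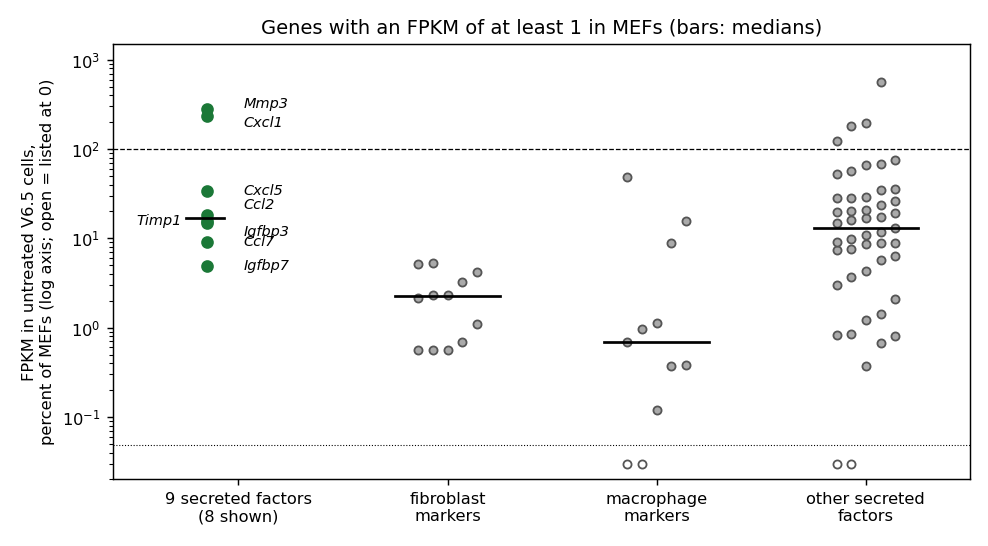
FPKM in untreated V6.5 cells as a percentage of that in MEFs (log y axis) for genes at 1 FPKM or more in MEFs, by list, with bars at the medians, a dashed line at 100%, and open symbols for genes listed at 0. Cxcl1 and Mmp3 stand above 100%, and all 12 fibroblast markers lie at or under 5.28%.

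A profile over the 5 libraries was compared between genes by the Euclidean distance of log2(FPKM + 0.1) values centred on each gene's mean, which describes 5 values a gene. Mmp3 was the second nearest gene to Cxcl1 (distance 1.20), after the chemoattractant gene Rarres2 (0.99), and Cxcl1 was the nearest to Mmp3. Ccl2 and Ccl7 were nearest to each other, at a distance of 0.91, followed by Serpina3h (2.00) for Ccl2 and the fibroblast proteoglycan gene Dcn (1.15) for Ccl7. The nearest genes to Cxcl5 were Fabp4 (0.39), Ccl5 (0.49), and Mmp13 (0.60). Those nearest to Igfbp7 were Vcam1 (0.34), Dcn (0.58), and Rhoj (0.70). Igfbp3 was nearest to Ifngr2 (0.23) and Timp1 to Thbs3 (0.36).

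The knockdown of Gldc was compared with NTC within their table. Il6, Cxcl1, Cxcl5, Ccl2, Ccl7, and Mmp3 were listed at 0 in both libraries, as were 33.2% of all 24421 genes. The floor of 3 fragments stood between 0.115 FPKM (Mmp3) and 0.258 FPKM (Ccl7) for these genes in NTC cells, which is about the level a value of 0 allows as a one-sided 95% bound. The 3 genes that passed the filter differed by less than 2-fold, where 7.68% of 11969 genes were at least 2-fold lower in shGldc cells and 8.97% at least 2-fold higher. Igfbp3 was 1.38-fold higher in shGldc cells (log2 ratio 0.46), with about 366 fragments (329.5 to 405.5) against 266 (235.0 to 300.0), which do not overlap. Igfbp7 was 1.14-fold higher (0.17), with about 24 fragments (15.4 to 35.7) against 21 (13.0 to 32.1), which overlap widely. Timp1 was 1.501-fold higher in NTC cells (-0.58), with about 473 fragments (431.3 to 517.6) against 313 (279.3 to 349.7), which do not overlap either. These intervals cover counting error only and not the spread between cultures. These ratios ran in both directions, with a median of 0.17 against 0.04 over all genes. As a yardstick, the log2 ratios of all genes between NTC and untreated V6.5 cells, which include any difference between the tables, had a robust SD of 0.59.

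The untreated V6.5 library can be set only side by side with these libraries. Igfbp3 and Timp1 were at 10.2 and 35.4 FPKM in untreated V6.5 cells, close to the 7.57 and 36.9 FPKM of NTC cells. Igfbp7 was at 20.3 FPKM in untreated V6.5 cells and 1.22 FPKM in NTC cells, and Ccl2 at 10.2 FPKM in the former and listed at 0 in the latter. Of the 9200 genes at 3 FPKM or more in untreated V6.5 cells, 8 were listed at 0 in both NTC and shGldc cells (0.087%), and 4 of these 8 were Ccl2, Ccl7, Cxcl1, and Mmp3, a count chosen after its values were seen. The others were Col3a1 and Lox, which encode a fibrillar collagen and the enzyme that cross-links it, the matrix glycoprotein gene Tnc, and Tmem213. In iPSCs, which stand in the table of untreated V6.5 cells, Ccl2, Ccl7, and Mmp3 were listed at 0. Cxcl1, Col3a1, Lox, and Tnc were at 0.0954 to 0.105 FPKM there, and Tmem213 at 3.56 FPKM. The shRNA, the separate making of the tables, and any difference of the untreated V6.5 culture go with this contrast and cannot be told apart.

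The cell cycle inhibitor genes, which serve as senescence markers, gave ratios under 2-fold in the knockdown, all higher in shGldc cells. The study reported induction of its senescence markers in V6.5 cells with Gldc knockdown, by Western blot and qRT-PCR. Cdkn1a, which encodes p21, was at 73.0 FPKM in NTC cells and 116 FPKM in shGldc cells (log2 ratio 0.67), and Cdkn2b, which encodes p15, at 2.71 and 4.85 FPKM (0.82). Cdkn2a, the locus of p16 and p19ARF, was at 31.7 and 36.0 FPKM (0.18). The nuclear lamina gene Lmnb1 was at 218 and 187 FPKM and the proliferation gene Top2a at 64.2 and 43.0 FPKM (-0.58). Of these genes and Mki67, 0 of 6 were past 2-fold, where 7.68% of all genes were at least 2-fold lower and 8.97% higher. Of the 10 markers of primitive or parietal endoderm, 7 passed the filter and 5 were at least 2-fold higher in shGldc cells, where 8.97% of all genes were, among them Gata6 at 0.462 and 8.22 FPKM, and a summed level of 42.9 FPKM in NTC and 87.0 FPKM in shGldc cells. Gata6 and Dab2, 2 of the 5, passed only through the shGldc library. The part of these markers in the secreted factors was not tested.

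**Figure D4:**
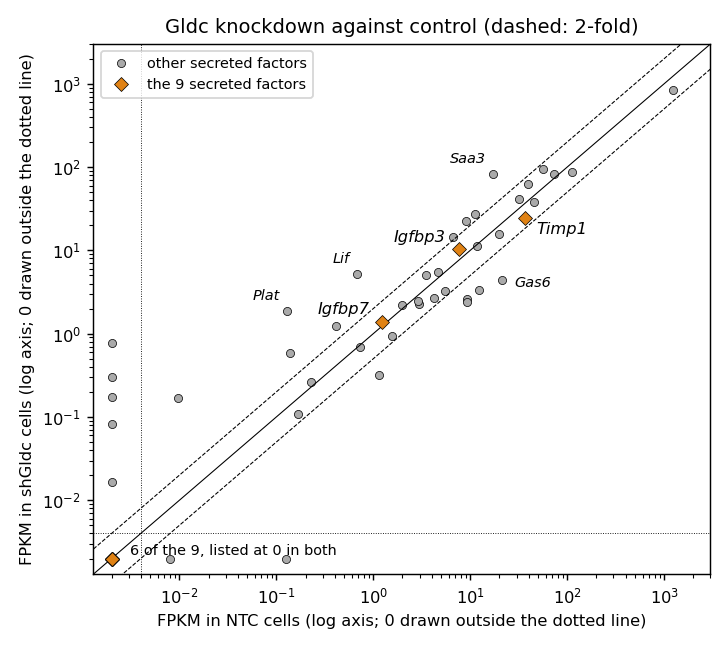
FPKM in shGldc cells (log y axis) against NTC cells (log x axis) for the 9 secreted factors and the list of other secreted factors, 1 point per gene, with equality as a solid line, 2-fold as dashed lines, and values of 0 outside the dotted lines. Igfbp3, Igfbp7, and Timp1 lie within the 2-fold lines, and the other 6 are listed at 0 in both libraries.

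Of 67 other secreted factors linked to senescence in a hand-written list, 65 were in the tables. In untreated V6.5 cells against MEFs, 51 passed the filter, of which 40 were at least 2-fold lower and 3 higher, where 23.3% and 30.3% of all genes were. Of the 40, 17 were under 1 FPKM in V6.5 cells and passed only through the MEF library, so that their direction follows from the filter. The median log2 ratio was -2.53, or -2.65 over the 49 with a known transcript length with values at the floor set to it. The highest levels in MEFs were those of the matrix genes Sparc (1768 FPKM) and Fn1 (1255 FPKM) and of the cytokine Mif (821 FPKM). The lowest ratios were those of the protease Adamts1, at 73.7 FPKM in MEFs and 0.498 FPKM in V6.5 cells, and of the matrix protein gene Postn, at 203 and 1.66 FPKM. The highest were those of Lcn2, an iron-carrier binding protein, listed at 0 in MEFs and at 1.77 FPKM in V6.5 cells, and of the acute-phase gene Saa3, at 0.677 and 8.75 FPKM, both of which passed only through the V6.5 library. In iPSCs against MEFs, 39 of 50 were at least 2-fold lower and 4 higher, where 21.3% and 31.5% of all genes were. Of the 39, 23 passed only through the MEF library, and of the 4, Saa3 passed only through the iPSC library. The median was -3.45, or -2.97 over 48 genes with values at the floor set to it. Thbs1, a matrix regulator of angiogenesis, was at 590 FPKM in MEFs and 0.859 FPKM in iPSCs, and Pdgfa, a fibroblast mitogen, at 13.5 and 42.0 FPKM.

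Between iPSCs and untreated V6.5 cells, the wider list had genes past 2-fold in both directions. Of 35 genes that passed, 8 were at least 2-fold lower and 4 higher in iPSCs, where 7.44% and 10.1% of all genes were, with a median of -0.09. Of the 8 lower, 7 passed only through the V6.5 library, Lcn2 and Postn among them, and of the 4 higher, Cxcl10 passed only through the iPSC library. Cxcl16, a membrane-bound chemokine, was at 8.88 FPKM in iPSCs and 1.28 FPKM in V6.5 cells, and Serpine2, a protease inhibitor, at 64.4 and 18.0 FPKM. Lcn2 and Postn were lower in iPSCs, listed at 0 and at 0.0185 FPKM.

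In shGldc cells against NTC, 7 of 29 genes of the wider list were at least 2-fold higher and 5 lower, where 8.97% and 7.68% of all genes were, with a median of -0.07, or -0.20 over 27 genes with a known transcript length. Of the 7 higher, Lif, Cxcl16, and Plat passed only through the shGldc library. The highest ratios were those of Plat, the tissue plasminogen activator, at 0.128 FPKM in NTC and 1.90 FPKM in shGldc cells (3.13), and of Lif, at 0.682 and 5.25 FPKM (2.77). The lowest were those of Gas6, a ligand of receptor tyrosine kinases, at 21.3 and 4.47 FPKM (-2.23), and of the gelatinase gene Mmp2, at 9.34 and 2.38 FPKM (-1.93). Of the IGFBP family, 1 of 5 genes that passed was past 2-fold. This was Igfbp6, at 0.837 and 2.43 FPKM (1.43), which passed only through the shGldc library. Of the TIMP family, 1 of 3 was past 2-fold, namely Timp2, at 3.48 and 1.34 FPKM (-1.31).

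Regulators of the secretory programme formed a list of 45, of which 43 were in the tables. In untreated V6.5 cells against MEFs, 21 of 42 were at least 2-fold lower and 6 higher (median -1.01), where 23.3% and 30.3% of all genes were. In iPSCs against MEFs, 18 of 42 were lower and 6 higher (median -0.62), where 21.3% and 31.5% of all genes were. Of the regulators lower than in MEFs, 7 in V6.5 cells and 6 in iPSCs passed only through the MEF library. Among those higher, Gata4 passed only through the pluripotent library in both comparisons. The NF-kappaB subunit gene Nfkb1 was at 16.6 FPKM in MEFs, 14.4 FPKM in iPSCs, 15.6 FPKM in untreated V6.5 cells, 10.8 FPKM in NTC cells, and 7.15 FPKM in shGldc cells. Its partner Rela was at 42.4, 17.3, 12.7, 11.9, and 16.1 FPKM, and Cebpb, which encodes C/EBP-beta, at 94.9, 49.8, 20.6, 17.3, and 18.1 FPKM, in the same order. Between iPSCs and V6.5 cells, which differed in the members, Nfkb1 had a ratio of -0.12 and Rela of 0.44, while Cebpb was higher in iPSCs (1.27), and 8 of 37 regulators were at least 2-fold higher and 3 lower in iPSCs, where 10.1% and 7.44% of all genes were. Of these, Fosl1 passed only through the iPSC library, and Nfkbiz and Jund only through the V6.5 library. The largest ratios to MEFs in V6.5 cells were those of Hmgb2, a chromatin protein (3.41), and Socs3, a feedback inhibitor of gp130 signalling (3.04), and the lowest were those of the AP-1 genes Jund (-6.19) and Fosl2 (-4.73). Jund was at 142 FPKM in MEFs and at 0.364 and 1.84 FPKM in iPSCs and untreated V6.5 cells, but at 118 and 160 FPKM in NTC and shGldc cells, so its level in V6.5 cells differed widely between the tables.

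Among the regulators in shGldc cells against NTC, 6 of 36 were at least 2-fold higher and 2 lower (median 0.11), where 8.97% and 7.68% of all genes were. The direction of Atf3 and Fos, which passed only through the shGldc library, and of Cebpa, which passed only through NTC, follows from the filter. The stress-induced factor Atf3 was at 0.180 FPKM in NTC and 4.195 FPKM in shGldc cells (3.94) and Cebpd at 2.21 and 7.41 FPKM. Cebpa, which encodes C/EBP-alpha, was at 4.53 and 0.311 FPKM (-3.49), and Socs3 at 98.8 and 45.9 FPKM (-1.11). Of the 21 receptors and binding partners of the members, 11 of 14 were at least 2-fold lower in untreated V6.5 cells than in MEFs and none higher, and 12 of 14 were lower in iPSCs, where 23.3% and 21.3% of all genes were lower. In both comparisons Il6ra, Ccr1, Igf1, and Cd93 passed only through the MEF library, so that their direction follows from the filter. In shGldc cells against NTC, 0 of 11 were past 2-fold.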

How the data were processed

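Total RNA of 5 mouse cultures was extracted with TRIzol and made into libraries with the NEBNext Ultra RNA kit, which does not mark strand. The authors mapped reads with TopHat2 2.1.0 and assembled transcripts with StringTie 1.3.4d, and the values deposited by the authors are FPKM from Ballgown in 2 tables. The labels name mm9 and mm10 and the study's methods mm10. Annotation, counting filters, and strand setting are not given in the sources used here. Values were used as deposited, with a pseudocount of 0.1, and genes under 1 FPKM in both libraries of a pair were left out of its ratios. Gene positions and lengths came from the mm10 annotation and promoters from RefSeq. Depth was estimated over 5723 genes with a single transcript, as the step of which low FPKM values multiplied by length are whole multiples. Fragment numbers have exact 95% Poisson intervals, which cover counting error only. With 1 library per group no test was run. The members, the lists, and the rule for named genes (members, their families and partners, the list genes with the highest MEF level or the highest and lowest ratios, nearest profiles, markers, and Gldc) were chosen with earlier results of these data known. Alternatives were other pseudocounts, filters, and scalings, and untreated V6.5 cells as control. The fold count and the step search were tested on simulated data. The tools were pandas 2.3.3 and numpy 2.4.6 under Python 3.11.15, with scipy 1.17.1 for intervals and matplotlib 3.10.9 for plots.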

Additional observations from a re-analysis of the deposited data

Results flagged for a closer look

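Cxcl1 and Mmp3 stood on opposite sides of the MEF library in the stem cell libraries of its table. The log2 ratio of Cxcl1 to MEFs was 1.19 in untreated V6.5 cells and -3.15 in iPSCs. That of Mmp3 was 1.44 in V6.5 cells and -4.48 in iPSCs. The difference was not tested, since each is 1 library, and the iPSC ratios, taken at 2 fragments for Cxcl1 and against a level listed at 0 for Mmp3, depend on the pseudocount.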

How the results depend on the processing

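No alternative turned the direction of a member ratio within a table. A pseudocount of 1 moved 11 of 26 member ratios by more than 0.59 and a pseudocount of 0.01 moved 9 of 26, while the filters and scalings moved 0. For iPSCs against MEFs, the median of the other secreted factors was -3.45 and became -1.92 with a pseudocount of 1, -2.26 without a filter, and -2.84 at an FPKM of at least 5, and at that filter 5 members passed, all lower. For shGldc against NTC, the median of that list was -0.07 and turned to 0.20 at an FPKM of at least 5. With untreated V6.5 cells as control, which crosses the tables, 5 of 7 members were at least 2-fold lower in shGldc cells in place of 0 of 3. Of all genes, 13.9% were lower by that much. Ccl2, Ccl7, Cxcl1, and Mmp3, listed at 0 in shGldc cells, passed only through the V6.5 library, and Igfbp7 had a ratio of -3.77. Of these changes the cause was not tested. With a pseudocount of 1, Cxcl1 (0.88) and Cxcl5 (-0.94) were short of 2-fold in V6.5 cells against MEFs, which left 1 member higher and 5 lower. No library could be left out, and no paired analysis was possible because each group holds 1 library. Depth limits the members listed at 0 and Il6, Cxcl1, and Cxcl5 at a few fragments.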

Other observations

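A total of 20 genes had an FPKM of at least 1 in untreated V6.5 cells and under 0.1 in iPSCs, NTC cells, and shGldc cells, a selection made after the values were seen. Of these, 4 were Ccl2, Ccl7, Cxcl1, and Mmp3, and 18 had an FPKM of at least 1 in MEFs. The fibroblast markers among them were Col3a1 and Dcn, and the macrophage marker was Lyz2, at 142 FPKM in MEFs, 1.59 FPKM in V6.5 cells, and 0.0856 FPKM in iPSCs and listed at 0 in NTC and shGldc cells. The level in V6.5 cells was higher than in MEFs for 5 of the 20, namely Cxcl1, Mmp3, the chemoattractant gene Rarres2 (1.64 FPKM in MEFs and 1.69 FPKM in V6.5 cells), and Lcn2 and Spata45, which were listed at 0 in MEFs. Postn was at 203 FPKM in MEFs and 1.66 FPKM in V6.5 cells.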
